A study of Chimonocalamus delicatus with 27 samples.

Results

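The young culm of a fragrant bamboo was compared with the shoot it grows from. Chimonocalamus delicatus is a woody bamboo, and the study used RNA sequencing to follow terpenoid genes through culm ages and plant parts. A culm is the stem of a bamboo. The comparison described here took the 3 libraries labelled as stem of 0.5 years, called the half-year stem, and the 3 labelled as bamboo shoot, 6 of the 27 libraries in all, chosen by their labels alone. No treatment is given for either group beyond the stage, and the labels do not say whether the 3 libraries of a group came from separate plants. P-values therefore rest on the spread among libraries, here pooled over all 5 growth stages, and part of that spread may be technical. If the 3 libraries of a group came from 1 plant, the spread between plants would be missing and p-values would be too small. Of 55972 genes in the table, 29538 reached 1 FPKM (fragments per transcript length and library size) in at least 3 of the 15 growth stage libraries and were tested across all functions. Symbols and roles are those of similar genes in other species.

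A bamboo shoot is a culm still enclosed in its sheaths, with dividing tissue at the base of each internode and cells that elongate by loosening their walls. Once an internode has reached its length, its fibre and vessel cells lay down secondary walls of cellulose, xylan and lignin, and the culm does not thicken further. Cell division needs replication factors, cyclins and motor proteins of the spindle and phragmoplast, elongation needs expansins and xyloglucan endotransglucosylases, and wall thickening needs a separate set of cellulose synthases and the phenylpropanoid pathway that makes lignin precursors.

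Total deposited expected counts were 9393690 to 12422327 in the half-year libraries and 9315107 to 12288680 in the shoot libraries. The edgeR quasi-likelihood test, with Benjamini-Hochberg adjustment over all genes tested, called 53.8% of the genes at an adjusted p under 0.05, 26.5% higher and 27.3% lower in the half-year stem, and the median log2 change of all genes was -0.04. A change beyond 2-fold was called for 13.6% higher and 11.9% lower. All 3 half-year FPKM values lay above all 3 shoot values for 22.9% of the genes tested, and below them for 43.5%. Groups that do not overlap were thus common. Counts of gene groups below are to be read beside the 26.5% and 27.3% of all genes. The 3 half-year libraries were close to each other, with a biological coefficient of variation of 5.43% against 44.2% in the shoot. It was 30%, 26.5% and 24.3% in stems of 1, 2 and 3 years. The pooled fit covers groups of such unlike spread. Shoot library 3 stood apart: of 19846 genes at 5 FPKM or more in some shoot library, 7.87% lay over 2-fold above both other shoot libraries, against 2.44% and 1.33% for libraries 1 and 2. Of the 15891 calls, 15030 were kept without shoot library 3, and 9417 when the 3 half-year libraries were summed to 1 sample, a setting tried because they vary so little. Values below are FPKM in libraries 1, 2 and 3 of each group. Each log2 change and adjusted p comes from edgeR on counts scaled by TMM (trimmed mean of M-values). The value after ± is a standard error derived from the estimated change and its F statistic. It thus restates the unadjusted p-value and is no separate measure of spread. On log2(FPKM + 1) the median change of all genes was -0.28, so that FPKM values read slightly lower in the half-year stem than the log2 changes do. On that scale 6140 of the 29538 genes were called higher and 11502 lower, and group counts given for it are to be read beside these. Without shoot library 3 the shares of all genes were 29.5% higher and 28.8% lower. Summed half-year libraries called fewer of all genes, above all fewer lower, so smaller group counts there are partly general. OSH15, a meristem gene, and CESA4, a cellulose synthase of secondary walls, were detected in all 6 libraries.

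**Figure D1:**
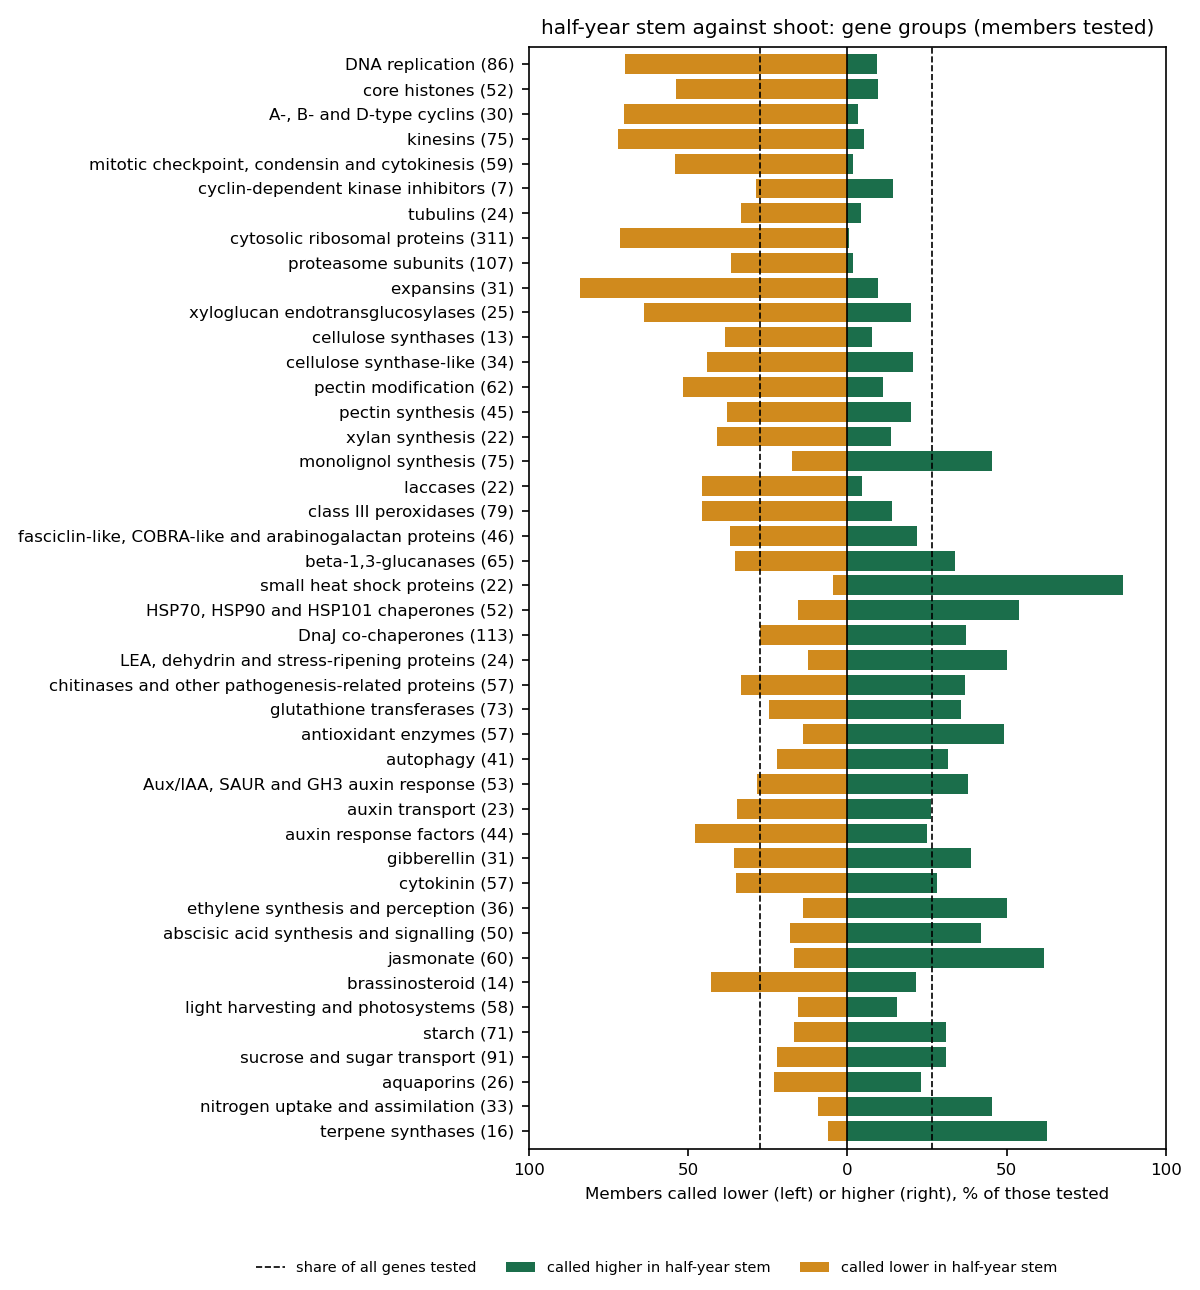
Share of the tested members of each gene group called higher (bars to the right) or lower (bars to the left) in the half-year stem than in the shoot, in % of the members tested, whose number stands in parentheses. Dashed lines mark the shares over all genes tested, 26.5% higher and 27.3% lower, and expansins and small heat shock proteins stand at opposite ends, with 83.9% lower and 86.4% higher.

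Among the 15 largest rises were transporters, a peptidase, a protein-folding enzyme and oxidases. Both DTX49 genes, described as MATE efflux transporters, were near 0 in the shoot: DTX49 (PH02Gene01912) was at 180, 167 and 187 FPKM in the half-year libraries, against 0.187, 0.453 and 0.905 FPKM in the shoot libraries (log2 change 8.81 ± 0.55, adjusted p = 5.8e-08). The other, DTX49 (PH02Gene51096), was at 176, 157 and 166 FPKM in the half-year libraries, against 0.342, 0.361 and 0.596 FPKM in the shoot libraries (log2 change 8.93 ± 0.53, adjusted p = 3.65e-08). The 6 half-year values lay between 157 and 187 FPKM and no shoot value reached 1 FPKM. PREP (PH02Gene00522), a prolyl endopeptidase that cuts small peptides after proline, was at 402, 410 and 399 FPKM in the half-year libraries, against 3.06, 1.39 and 2.64 FPKM in the shoot libraries (log2 change 7.77 ± 0.44, adjusted p = 2.63e-08). FKBP70 (PH02Gene36316), a peptidyl-prolyl isomerase of the FKBP type that acts with heat shock chaperones in Arabidopsis, was at 798, 831 and 816 FPKM in the half-year libraries, against 5.97, 5.75 and 15.3 FPKM in the shoot libraries (log2 change 6.89 ± 0.62, adjusted p = 1.02e-06). Both genes lay above 390 FPKM in every half-year library and under 20 FPKM in every shoot library.

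Cytochrome P450 oxidases of the CYP709B1 name rose together. The most abundant of them, PH02Gene39130, was at 703, 711 and 727 FPKM in the half-year libraries, against 7.05, 1.95 and 7.38 FPKM in the shoot libraries (log2 change 7.39 ± 0.70, adjusted p = 1.7e-06). PH02Gene39131 was at 405, 391 and 425 FPKM in the half-year libraries and 5.61, 1.87 and 3.1 FPKM in the shoot libraries, and PH02Gene24837 at 475, 499 and 503 FPKM and 7.66, 2.08 and 5.06 FPKM. Near-identical genes can share reads, so the split among the 3, and among members of other families named here, is uncertain. Further rises were HSPRO1 (PH02Gene37521), named after a nematode resistance gene of sugar beet, with a log2 change of 7.41, and the calmodulin-binding IQM1 (PH02Gene47414), with 7.43. The transposase-derived gene PH02Gene06279, described as ANTAGONIST OF LIKE HETEROCHROMATIN PROTEIN 1, had a log2 change of 7.39.

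Among the 15 largest falls, some genes had uneven shoot levels, as the 4 described next, and others, such as EXPA2 and ER1 described further on, had closer ones. APS1 (PH02Gene08196), an acid phosphatase that releases phosphate, was at 0.073, 0 and 0.158 FPKM in the half-year libraries, against 500, 34.4 and 41.2 FPKM in the shoot libraries (log2 change -10.92 ± 1.35, adjusted p = 1.66e-05). Shoot library 1 was over 10 times as high as libraries 2 and 3, and DESeq2 gave no adjusted p for this gene. SOT13 (PH02Gene31224), a cytosolic sulfotransferase, was at 0.665, 0.813 and 0.478 FPKM in the half-year libraries, against 112, 382 and 42.5 FPKM in the shoot libraries (log2 change -7.73 ± 0.87, adjusted p = 7.07e-06). Its highest shoot value was in library 2. NMT1 (PH02Gene01454), which methylates phosphoethanolamine on the way to choline, was at 0, 0.268 and 0.213 FPKM in the half-year libraries, against 175, 112 and 16.6 FPKM in the shoot libraries (log2 change -8.87 ± 1.01, adjusted p = 8.53e-06). GSTF10 (PH02Gene03580), a glutathione S-transferase, was at 0, 0.068 and 0.181 FPKM in the half-year libraries, against 153, 132 and 25 FPKM in the shoot libraries (log2 change -9.84 ± 0.88, adjusted p = 9.7e-07). For SOT13, NMT1 and GSTF10 alike, shoot library 3 was the lowest of its group, and it still lay above 10 FPKM where no half-year value reached 1 FPKM.

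Genes of cell division were lower in the half-year stem than in the shoot. Of DNA replication genes 8 of 86 were called higher and 60 lower (background 26.5% and 27.3%), with a median log2 change of -1.79. For core histones the counts were 5 higher and 28 lower of 52 tested, and for A-, B- and D-type cyclins 1 higher and 21 lower of 30. Of kinesins, the motors that move along microtubules, 4 of 75 were called higher and 54 lower. Summing the half-year libraries left 35 kinesins called lower, and moved genes of the mitotic checkpoint, condensin and cytokinesis to 17 called lower, against 32 of 59 in the fit as reported. Summed FPKM over the replication genes was 304, 307 and 298 in the half-year libraries and 1810, 702 and 814 in the shoot libraries. Shoot library 1 held more than the other shoot libraries, and all 3 lay above every half-year library.

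Entry into the cell cycle was represented by cyclins and E2F factors. E2FA (PH02Gene34520), a transcription factor that switches on S-phase genes, was at 1.44, 1.17 and 1.32 FPKM in the half-year libraries, against 45.4, 31 and 17.4 FPKM in the shoot libraries (log2 change -4.24 ± 0.41, adjusted p = 1.77e-06). CYCD5-2 (PH02Gene01190), a D-type cyclin of the G1 phase, was at 0.155, 0.294 and 0.278 FPKM in the half-year libraries, against 9.68, 7.73 and 4.28 FPKM in the shoot libraries (log2 change -4.52 ± 0.58, adjusted p = 2.11e-05). Neither gene overlapped between the groups. The replication helicase subunit MCM4 (PH02Gene12916) was at 0.031, 0.075 and 0.066 FPKM in the half-year libraries, against 84.2, 16.8 and 29.3 FPKM in the shoot libraries (log2 change -9.12 ± 0.73, adjusted p = 4.16e-07). The most abundant cyclin, CYCB1-2 (PH02Gene05813), was not called at 35.5, 37.1 and 36.7 FPKM in the half-year libraries, against 55.7, 49.5 and 46 FPKM in the shoot libraries (log2 change -0.12 ± 0.14, adjusted p = 0.504). RFC5 (PH02Gene15176), a clamp loader subunit, was not called either, at 31.1, 29.9 and 29.9 FPKM in the half-year libraries, against 57.9, 34.7 and 33.5 FPKM in the shoot libraries (log2 change -0.12 ± 0.27, adjusted p = 0.72). The groups did not overlap for CYCB1-2, which limma on log2(FPKM + 1) called lower (adjusted p = 0.0101). For RFC5 every shoot value also lay above the half-year values, and no alternative called it. Such an order was found for 43.5% of all genes tested, so it says little by itself. The most abundant core histone gene, HTR4 (PH02Gene23530), of the H3.3 type that is also deposited outside S phase, was at 117, 126 and 123 FPKM in the half-year libraries, against 86, 88.7 and 157 FPKM in the shoot libraries (log2 change 0.52 ± 0.18, adjusted p = 0.0263). Shoot library 3 was above all half-year values for this histone. The call ended with limma, after quantile normalization, with summed half-year libraries and, among left-out libraries, without any 1 of the other 5 (adjusted p = 0.0617 to 0.112).

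At the end of division the phragmoplast builds the new wall. KIN12A (PH02Gene23920), a kinesin located at the phragmoplast in Arabidopsis, was at 2.13, 1.67 and 1.89 FPKM in the half-year libraries, against 25, 46.8 and 18.4 FPKM in the shoot libraries (log2 change -3.65 ± 0.32, adjusted p = 7.52e-07). MAP65-1 (PH02Gene18145), which bundles microtubules, was at 4.49, 5.02 and 4.88 FPKM in the half-year libraries, against 81.2, 74.9 and 43.7 FPKM in the shoot libraries (log2 change -3.46 ± 0.34, adjusted p = 2.06e-06). Another gene of that family, MAP65-6 (PH02Gene25122), ran the other way and was at 299, 314 and 306 FPKM in the half-year libraries, against 6.87, 7.43 and 6.12 FPKM in the shoot libraries (log2 change 5.84 ± 0.29, adjusted p = 7.33e-09). These 2 MAP65 genes changed in opposite directions, with no overlap of the groups in either. TUBB2 (PH02Gene17297), a beta-tubulin, was at 14.2, 12.8 and 14.2 FPKM in the half-year libraries, against 267, 509 and 98 FPKM in the shoot libraries (log2 change -4.09 ± 0.49, adjusted p = 1.34e-05). For all tubulins 1 of 24 were called higher and 8 lower.

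**Figure D2:**
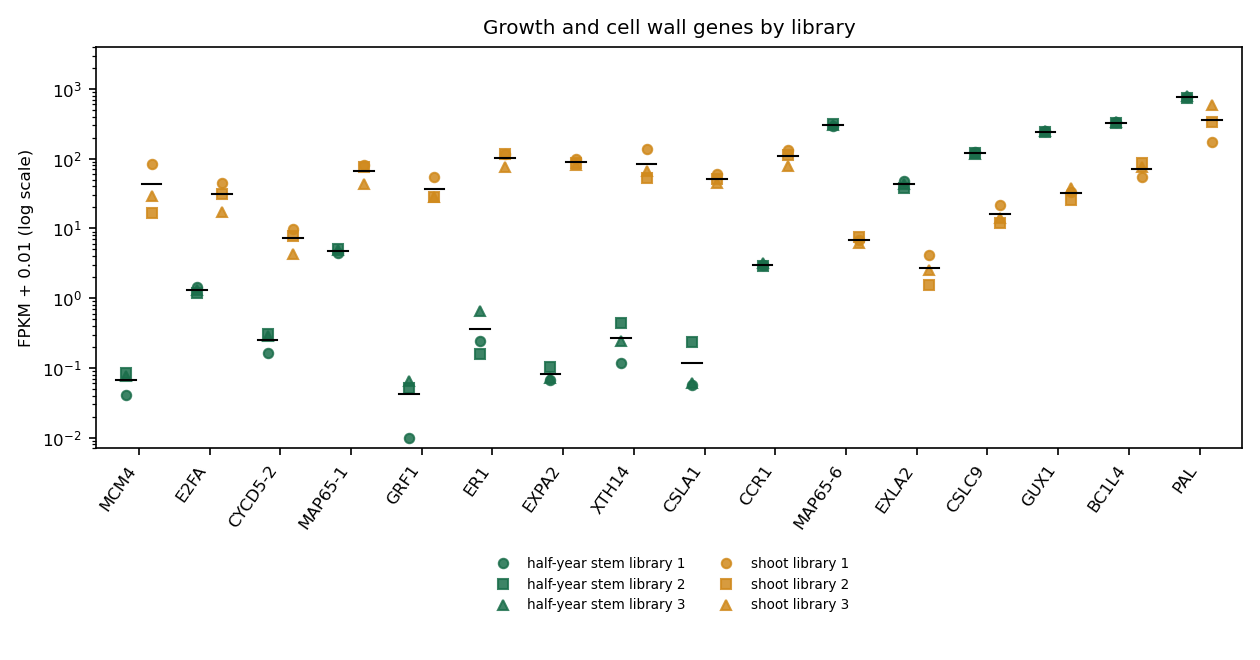
FPKM + 0.01 (log scale) of 16 named genes of growth and the cell wall in each half-year stem library (green, left of each pair) and shoot library (orange, right), with the mean of the 3 libraries as a bar. MCM4 to CCR1 lie lower and MAP65-6 to PAL higher in the half-year stem, and a value of 0 is drawn at 0.01, as for GRF1 in half-year library 1.

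Most growth-regulating genes on the lists were lower. Of growth-regulating factors (GRF), transcription factors that promote cell proliferation in young organs, 1 of 19 were called higher and 15 lower, with a median log2 change of -3.58. GRF1 (PH02Gene34199) was at 0, 0.041 and 0.055 FPKM in the half-year libraries, against 54.4, 28.5 and 28.4 FPKM in the shoot libraries (log2 change -9.58 ± 0.60, adjusted p = 8.06e-07). The most abundant member in the 6 libraries, GRF4 (PH02Gene03768), was at 3.48, 3.95 and 4.98 FPKM in the half-year libraries, against 42.1, 24.3 and 56.8 FPKM in the shoot libraries (log2 change -2.94 ± 0.47, adjusted p = 0.000147). The 1 that rose, GRF3 (PH02Gene02258), was at 11.1, 11.8 and 11.1 FPKM in the half-year libraries, against 4.42, 3.76 and 11.3 FPKM in the shoot libraries (log2 change 1.19 ± 0.39, adjusted p = 0.0176), where shoot library 3 lay within the half-year values. That call ended with summed half-year libraries and without shoot library 1 or 2 (adjusted p = 0.0688 and 0.0694). Of TCP factors, which promote or limit proliferation by class, 1 of 13 were called higher and 11 lower. ER1 (PH02Gene02624), described as an ERECTA receptor kinase, which promotes stem elongation in Arabidopsis, was at 0.236, 0.15 and 0.65 FPKM in the half-year libraries, against 116, 116 and 75.5 FPKM in the shoot libraries (log2 change -7.91 ± 0.47, adjusted p = 3.52e-08). SIK1 (PH02Gene13033), described as the related receptor ERL1, had a log2 change of -8.64.

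Meristem regulators of the KNOX, WOX and YABBY families did not move as a block, with 11 higher and 6 lower of 20. KNOX3 (PH02Gene12436), a KNOX factor, was at 8.13, 7.53 and 8.4 FPKM in the half-year libraries, against 76.8, 49.2 and 53.5 FPKM in the shoot libraries (log2 change -2.55 ± 0.42, adjusted p = 0.000187). HOS59 (PH02Gene36015) was at 54.6, 58.9 and 56.9 FPKM in the half-year libraries, against 7.29, 5.54 and 26.5 FPKM in the shoot libraries (log2 change 2.52 ± 0.45, adjusted p = 0.000313). OSH15 (PH02Gene32186), the most abundant of them and a class of gene that keeps cells in the meristem state, was not called at 50.4, 50.1 and 51.9 FPKM in the half-year libraries, against 110, 93.9 and 64.5 FPKM in the shoot libraries (log2 change -0.47 ± 0.22, adjusted p = 0.0854). Leaving out shoot library 3 gave a call of lower, as did limma and quantile normalization.

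Protein synthesis genes were lower by a smaller amount. Of cytosolic ribosomal protein genes 2 of 311 were called higher and 222 lower, with a median log2 change of -0.87, and 25 fell beyond 2-fold. Their summed FPKM was 10400, 10900 and 10800 in the half-year libraries and 28500, 25900 and 17000 in the shoot libraries. Shoot library 3 was the lowest of its group and still above all 3 half-year libraries. The number called lower was 68 with summed half-year libraries and 192 when shoot library 3 was also left out. RPL5A (PH02Gene29817), the most abundant of them, was at 246, 251 and 266 FPKM in the half-year libraries, against 889, 720 and 494 FPKM in the shoot libraries (log2 change -1.12 ± 0.22, adjusted p = 0.000651). Proteasome subunit genes gave 2 higher and 39 lower of 107 and a median of -0.31. With summed half-year libraries their share called lower was close to that of all genes, so the excess of lower calls was not kept.

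Wall-loosening expansins had the lowest median of the 68 gene lists described. Of expansins, which loosen walls at low pH, 3 of 31 were called higher and 26 lower, with a median of -8.29 on the log2 scale, which was -6.73 with genes at 0 in every half-year library set to a floor of 3 counts over the group. EXPA2 (PH02Gene32628) was at 0.057, 0.093 and 0.062 FPKM in the half-year libraries, against 98.1, 86.6 and 81.8 FPKM in the shoot libraries (log2 change -9.77 ± 0.36, adjusted p = 2.81e-09). EXPB4 (PH02Gene01650) was at 0.27, 0.329 and 0.29 FPKM in the half-year libraries, against 105, 217 and 35 FPKM in the shoot libraries (log2 change -8.28 ± 0.76, adjusted p = 1.28e-06). Both genes were below 0.4 FPKM in every half-year library and at 35 FPKM or more in every shoot library. Among the 3 that rose, EXLA2 (PH02Gene38031), an expansin-like gene, was at 48.6, 37.8 and 43.2 FPKM in the half-year libraries, against 4.21, 1.52 and 2.49 FPKM in the shoot libraries (log2 change 4.30 ± 0.44, adjusted p = 3.39e-06). Expansin FPKM summed to 104, 84.7 and 96.8 in the half-year libraries and 934, 1140 and 570 in the shoot libraries, and shoot library 3 was the lowest of its group.

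Xyloglucan endotransglucosylases, which cut and rejoin the xyloglucan that ties cellulose fibrils, gave 5 higher and 16 lower of 25. XTH14 (MSTRG.29846) was at 0.107, 0.435 and 0.23 FPKM in the half-year libraries, against 136, 53.2 and 65.9 FPKM in the shoot libraries (log2 change -7.89 ± 0.61, adjusted p = 2.97e-07). XTH25 (PH02Gene05411), the most abundant, was at 86.3, 78.4 and 89 FPKM in the half-year libraries, against 383, 313 and 797 FPKM in the shoot libraries (log2 change -2.17 ± 0.40, adjusted p = 0.000406). Among those that rose, XTH22 (PH02Gene02746) was at 9.82, 9.66 and 10.6 FPKM in the half-year libraries, against 0.164, 0.087 and 2.25 FPKM in the shoot libraries (log2 change 3.99 ± 0.72, adjusted p = 0.000372). XTH14 was nearly absent from the half-year libraries, whereas XTH25 kept a substantial level there.

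Genes that modify pectin, the polyuronide of primary walls, gave 7 higher and 32 lower of 62. The polygalacturonase At1g80170 (PH02Gene21110) was at 0.36, 0.734 and 0.485 FPKM in the half-year libraries, against 356, 22.8 and 65.8 FPKM in the shoot libraries (log2 change -7.77 ± 1.06, adjusted p = 3.77e-05). A second gene of that name, PH02Gene21109, was not called at 59.6, 59.9 and 61 FPKM in the half-year libraries, against 76.3, 125 and 130 FPKM in the shoot libraries (log2 change -0.51 ± 0.37, adjusted p = 0.254). In the half-year libraries the first was under 1 FPKM and the second above 59 FPKM, below all its shoot values, and quantile normalization called the second lower too (adjusted p = 0.0415). PME31 (PH02Gene19444), which removes methyl groups from pectin, was at 71.3, 71.9 and 70.1 FPKM in the half-year libraries, against 32.4, 14.6 and 18.3 FPKM in the shoot libraries (log2 change 2.06 ± 0.28, adjusted p = 4.09e-05). BXL7 (PH02Gene06474), a beta-xylosidase, was at 1.12, 0.803 and 0.708 FPKM in the half-year libraries, against 104, 246 and 46.1 FPKM in the shoot libraries (log2 change -6.91 ± 0.57, adjusted p = 5.48e-07).

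Genes of enzymes that make wall polysaccharides moved in both directions. CESA4 (PH02Gene14733), a cellulose synthase of secondary walls in rice and Arabidopsis, was at 299, 300 and 304 FPKM in the half-year libraries, against 46.7, 51.2 and 156 FPKM in the shoot libraries and was not called (log2 change 2.23 ± 1.12, adjusted p = 0.108). Every half-year value was above every shoot value, and the gene was called in the fit of the 6 libraries alone. A second gene, CESA4 (PH02Gene15083), was called at 47.2, 44.7 and 43.6 FPKM in the half-year libraries, against 9.09, 12.9 and 23.1 FPKM in the shoot libraries (log2 change 1.97 ± 0.76, adjusted p = 0.0405), and that call ended with summed half-year libraries, with DESeq2, after quantile normalization and without any 1 library other than shoot library 3 (adjusted p = 0.0745 to 0.115). CESA5 (PH02Gene08830), whose Arabidopsis namesake works in primary walls, was at 13.1, 15.4 and 14.3 FPKM in the half-year libraries, against 94.8, 146 and 88.1 FPKM in the shoot libraries (log2 change -2.60 ± 0.28, adjusted p = 4.49e-06). For the cellulose synthases on the list 1 of 13 were called higher and 5 lower. Their summed FPKM was 1100, 1100 and 1110 in the half-year libraries and 569, 691 and 1150 in the shoot libraries. CESA5 was thus called lower, while for CESA4 the half-year values were higher without a call that held.

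GUX1 (PH02Gene10692), which adds glucuronic acid side chains to xylan, was at 246, 238 and 246 FPKM in the half-year libraries, against 33.4, 25.7 and 37.6 FPKM in the shoot libraries (log2 change 3.28 ± 0.31, adjusted p = 1.62e-06), and was the most abundant xylan gene. GXM3 (PH02Gene30719), which methylates such side chains, was at 0.54, 0.99 and 1.16 FPKM in the half-year libraries, against 4.56, 37 and 16.5 FPKM in the shoot libraries (log2 change -4.06 ± 0.71, adjusted p = 0.000276). Of xylan synthesis genes 3 of 22 were called higher and 9 lower. Their summed FPKM was nonetheless higher, at 611, 592 and 606 in the half-year libraries and 296, 372 and 379 in the shoot libraries. CSLC9 (PH02Gene20970), which makes the glucan backbone of xyloglucan, was at 124, 122 and 118 FPKM in the half-year libraries, against 21.7, 12.1 and 14 FPKM in the shoot libraries (log2 change 3.28 ± 0.32, adjusted p = 1.82e-06). CSLA1 (PH02Gene34473), which makes the mannan backbone of glucomannan, was at 0.046, 0.227 and 0.05 FPKM in the half-year libraries, against 60.3, 50.5 and 45 FPKM in the shoot libraries (log2 change -8.39 ± 0.44, adjusted p = 1.43e-08). CSLF6 (PH02Gene46338), which makes the mixed-linkage glucan of grasses, was not called at 67, 63 and 69.8 FPKM in the half-year libraries, against 72.4, 71.4 and 68.2 FPKM in the shoot libraries (log2 change 0.27 ± 0.23, adjusted p = 0.337). In these 3 genes the call was a rise for xyloglucan, a fall for glucomannan and none for mixed-linkage glucan. COBRA-like proteins, anchored at the cell surface and needed for ordered cellulose in rice, included BC1L4 (PH02Gene30808) at 338, 321 and 332 FPKM in the half-year libraries, against 55.3, 86 and 75.4 FPKM in the shoot libraries (log2 change 2.55 ± 0.25, adjusted p = 2.47e-06). FLA7 (PH02Gene40552), a fasciclin-like arabinogalactan protein, was at 0.171, 0.278 and 0.184 FPKM in the half-year libraries, against 38.8, 56.7 and 27 FPKM in the shoot libraries (log2 change -7.18 ± 0.51, adjusted p = 1.6e-07).

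Lignin precursor genes were more often higher than lower. Of monolignol synthesis genes 34 of 75 were called higher and 13 lower, with a median log2 change of 1.05. With summed half-year libraries their share called higher came near that of all genes, though higher calls still outnumbered lower ones. PAL (PH02Gene27016), at the entry of the phenylpropanoid pathway, was at 771, 735 and 799 FPKM in the half-year libraries, against 176, 331 and 587 FPKM in the shoot libraries (log2 change 1.46 ± 0.38, adjusted p = 0.00531), and the call ended with summed half-year libraries. Shoot library 3 was the highest of its group for this gene, and the group's summed FPKM was 3100, 2900 and 3190 in the half-year libraries and 1420, 1590 and 2680 in the shoot libraries. 2 genes described as cinnamoyl-CoA reductases, which make the aldehydes of lignin, differed in direction. SNL6 (PH02Gene25511) was at 14.1, 15.7 and 16.4 FPKM in the half-year libraries, against 0.508, 0.293 and 1.25 FPKM in the shoot libraries (log2 change 4.85 ± 0.64, adjusted p = 2.96e-05). CCR1 (PH02Gene12619) was at 2.97, 2.84 and 3.2 FPKM in the half-year libraries, against 133, 112 and 78.9 FPKM in the shoot libraries (log2 change -4.82 ± 0.24, adjusted p = 8.17e-09). The more abundant of them in the shoot, CCR1, was the 1 that fell.

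Genes of enzymes that couple lignin precursors in the wall were more often called lower. Laccases gave 1 higher and 10 lower of 22 and class III peroxidases 11 higher and 36 lower of 79. Summed FPKM of the laccases did not follow these counts, at 406, 386 and 418 in the half-year libraries and 326, 368 and 729 in the shoot libraries. That of the peroxidases did, at 345, 326 and 358 in the half-year libraries and 916, 1240 and 989 in the shoot libraries. LAC17 (PH02Gene03398) had 0 counts in every half-year library and was at 16.2, 27.4 and 15.1 FPKM in the shoot libraries, at least 479-fold lower against a floor of 3 counts over the half-year group (adjusted p = 3.6e-06). LAC22 (PH02Gene18709), the most abundant laccase, was not called at 135, 140 and 141 FPKM in the half-year libraries, against 33.5, 27.5 and 131 FPKM in the shoot libraries (log2 change 1.52 ± 1.09, adjusted p = 0.256), with shoot library 3 near the half-year level. PER72 (PH02Gene23181) was at 0.357, 0.388 and 0.385 FPKM in the half-year libraries, against 83.4, 87.5 and 60.4 FPKM in the shoot libraries (log2 change -7.31 ± 0.33, adjusted p = 4.72e-09). PER52 (PH02Gene47818), also a peroxidase, was at 19, 19.9 and 21.1 FPKM in the half-year libraries, against 0.05, 0 and 0.463 FPKM in the shoot libraries (log2 change 7.16 ± 0.58, adjusted p = 4.29e-07). For these 2 peroxidases the groups did not overlap, in opposite directions. Beta-1,3-glucanases, which digest callose, gave 22 higher and 23 lower of 65, or 33.8% and 35.4%, beside 26.5% and 27.3% over all genes. At2g27500 (PH02Gene15482) was at 299, 273 and 302 FPKM in the half-year libraries, against 8.14, 17.3 and 17.4 FPKM in the shoot libraries (log2 change 4.72 ± 0.41, adjusted p = 8.06e-07), and At4g29360 (PH02Gene02493) at 0.113, 0.184 and 0.081 FPKM in the half-year libraries, against 52.9, 93.8 and 32 FPKM in the shoot libraries (log2 change -8.46 ± 0.51, adjusted p = 4.31e-08).

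Heat shock genes were higher in the half-year stem. Of small heat shock proteins, which bind unfolded proteins, 19 of 22 were called higher and 1 lower, with a median of 5.46, which was 5.30 with genes at 0 in every library of 1 group set to the floor. HSP18 (PH02Gene06266) was at 1026, 910 and 1042 FPKM in the half-year libraries, against 32.1, 19.8 and 58.1 FPKM in the shoot libraries (log2 change 5.14 ± 0.59, adjusted p = 8.5e-06). Summed FPKM of the small heat shock genes was 2290, 2320 and 2380 in the half-year libraries and 176, 132 and 405 in the shoot libraries. It averaged 369, 83.4 and 55.5 in stems of 1, 2 and 3 years, so the half-year level was above those of the shoot and of the older stems, a difference given here as values only. The conditions at harvest are not in the labels, and their part in these levels was not tested.

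Of the larger chaperones HSP70, HSP90 and HSP101, 28 of 52 were called higher and 8 lower. HSP82 (PH02Gene09089) was at 65.7, 80.8 and 80.2 FPKM in the half-year libraries, against 0.321, 0.761 and 5.13 FPKM in the shoot libraries (log2 change 5.59 ± 0.97, adjusted p = 0.000276), and DESeq2 gave no adjusted p for it. The most abundant one, HSP70 (PH02Gene35944), was not called at 625, 644 and 654 FPKM in the half-year libraries, against 1065, 1150 and 834 FPKM in the shoot libraries (log2 change -0.32 ± 0.20, adjusted p = 0.187), but limma, quantile normalization and the fit lacking shoot library 3 called it lower. DnaJ co-chaperones gave 42 higher and 31 lower of 113 and, on log2(FPKM + 1), 32 higher and 41 lower. All genes shifted toward lower calls on that scale, with 6140 higher and 11502 lower of 29538. ATJ11 (PH02Gene33589), a chloroplast DnaJ, was at 39.4, 38.5 and 40.7 FPKM in the half-year libraries, against 1.02, 0.269 and 0.709 FPKM in the shoot libraries (log2 change 6.12 ± 0.68, adjusted p = 6.9e-06). DNAJ1 (PH02Gene16891), the most abundant DnaJ gene, was at 500, 505 and 511 FPKM in the half-year libraries, against 785, 1017 and 1038 FPKM in the shoot libraries (log2 change -0.55 ± 0.17, adjusted p = 0.014), a call that ended with summed half-year libraries. Heat shock transcription factors, which switch on the chaperone genes, gave 25 higher and 5 lower of 40. HSFA3 (PH02Gene05710) was at 74, 69.4 and 68.6 FPKM in the half-year libraries, against 3.8, 0.316 and 1.42 FPKM in the shoot libraries (log2 change 5.58 ± 0.76, adjusted p = 3.65e-05).

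Antioxidant enzymes gave 28 higher and 8 lower of 57. APX2 (PH02Gene16639), which removes hydrogen peroxide with ascorbate, was at 807, 835 and 849 FPKM in the half-year libraries, against 245, 294 and 226 FPKM in the shoot libraries (log2 change 2.05 ± 0.24, adjusted p = 8.93e-06). The chloroplast peroxiredoxin PRXIIE-1 (PH02Gene34475) was at 7.09, 4.6 and 6.27 FPKM in the half-year libraries, against 0.749, 0.198 and 0.174 FPKM in the shoot libraries (log2 change 4.18 ± 0.67, adjusted p = 0.000138). A chloroplast monodehydroascorbate reductase, PH02Gene12582, was at 1.42, 1.5 and 1.3 FPKM in the half-year libraries, against 18.7, 15.2 and 10.4 FPKM in the shoot libraries (log2 change -3.04 ± 0.28, adjusted p = 1.34e-06). The 2 chloroplast enzymes differed in direction, and neither pair of groups overlapped. Glutathione transferases gave 26 higher and 18 lower of 73 and, on log2(FPKM + 1), 20 higher and 21 lower. The most abundant, GST1 (PH02Gene00763), was at 555, 515 and 550 FPKM in the half-year libraries, against 2746, 1667 and 1504 FPKM in the shoot libraries (log2 change -1.52 ± 0.28, adjusted p = 0.000416). GSTF1 (PH02Gene38549) was at 16, 15.5 and 17.9 FPKM in the half-year libraries, against 0.951, 0.251 and 4.96 FPKM in the shoot libraries (log2 change 3.38 ± 0.52, adjusted p = 0.000111). Every shoot value of GST1 was more than 2 times any half-year value.

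Genes of drought and defence were called in both directions. LEA, dehydrin and stress-ripening genes, whose proteins protect cells that lose water, gave 12 higher and 3 lower of 24. DHN1 (PH02Gene01531) was at 453, 501 and 476 FPKM in the half-year libraries, against 291, 251 and 249 FPKM in the shoot libraries (log2 change 1.21 ± 0.23, adjusted p = 0.000586), a call that ended after quantile normalization. Another gene of that symbol, PH02Gene07646, was at 5.63, 6.98 and 4.88 FPKM in the half-year libraries, against 11.3, 33.3 and 325 FPKM in the shoot libraries (log2 change -3.95 ± 0.92, adjusted p = 0.00237). Its shoot values rested on library 3, and the call ended with summed half-year libraries. Chitinases and other pathogenesis-related genes gave 21 higher and 19 lower of 57, or 36.8% and 33.3%, beside 26.5% and 27.3% over all genes. TL1 (PH02Gene24694), a thaumatin-like protein, was at 77.9, 75.8 and 73.9 FPKM in the half-year libraries, against 0.099, 0.13 and 0.115 FPKM in the shoot libraries (log2 change 9.53 ± 0.81, adjusted p = 6.79e-07). A second thaumatin-like gene, At1g18250 (PH02Gene32525), was at 0, 0 and 0.075 FPKM in the half-year libraries, against 37, 29.8 and 22 FPKM in the shoot libraries (log2 change -9.56 ± 0.66, adjusted p = 4.19e-07). The most abundant chitinase, Cht7 (PH02Gene32087), was not called at 148, 119 and 138 FPKM in the half-year libraries, against 139, 600 and 289 FPKM in the shoot libraries (adjusted p = 0.129), though leaving out shoot library 1 gave a call of lower (adjusted p = 0.0407). Autophagy genes gave 13 higher and 9 lower of 41 and, on log2(FPKM + 1), 10 higher and 16 lower. ATG8C (PH02Gene48672), which coats the autophagosome membrane, was at 66, 68.3 and 68.2 FPKM in the half-year libraries, against 29, 25.4 and 50.4 FPKM in the shoot libraries (log2 change 1.33 ± 0.20, adjusted p = 7.23e-05).

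**Figure D3:**
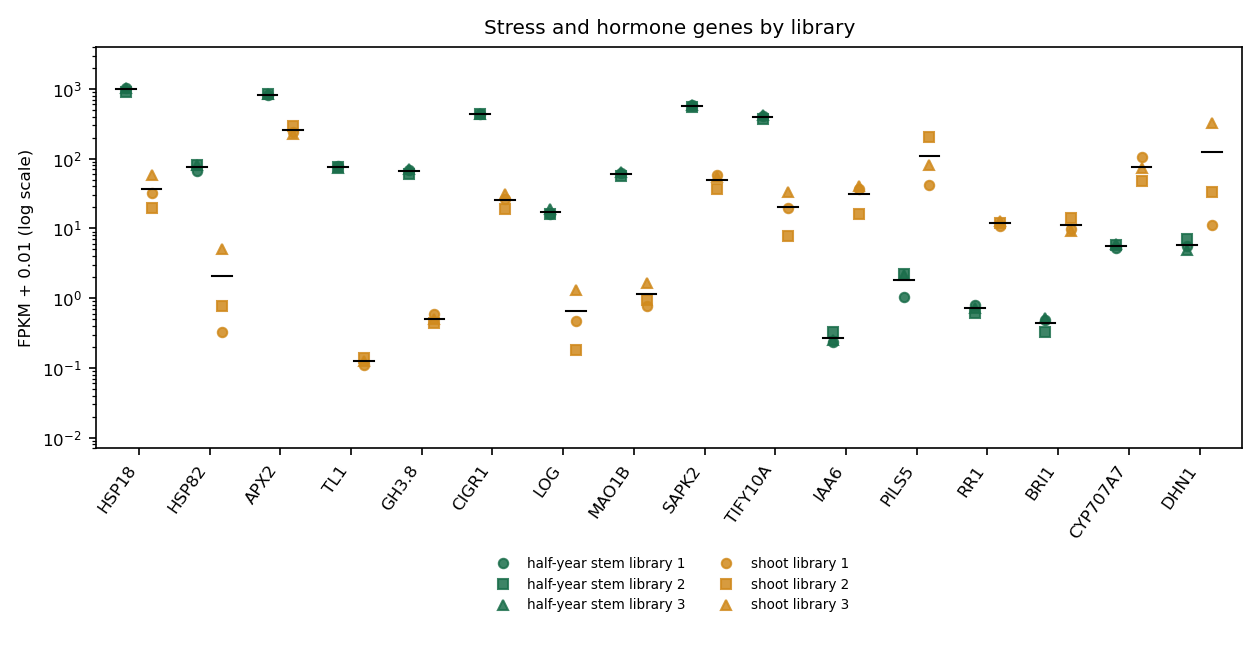
FPKM + 0.01 (log scale) of 16 named stress and hormone genes in each half-year stem library (green, left of each pair) and shoot library (orange, right), with the mean of the 3 libraries as a bar. HSP18 to TIFY10A lie higher and IAA6 to the DHN1 gene PH02Gene07646 lower in the half-year stem, and the shoot values of that DHN1 gene run between 11.3 and 325 FPKM.

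Auxin genes were called in both directions, as were all genes tested. Early response genes of the Aux/IAA, SAUR and GH3 families gave 20 higher and 15 lower of 53. These shares were 37.7% and 28.3%, beside 26.5% and 27.3% over all genes. GH3.8 (PH02Gene13076), which conjugates auxin to amino acids, was at 69.8, 60.8 and 71.7 FPKM in the half-year libraries, against 0.582, 0.427 and 0.487 FPKM in the shoot libraries (log2 change 7.41 ± 0.33, adjusted p = 4.29e-09). IAA6 (PH02Gene36939), a repressor that auxin degrades, was at 0.223, 0.318 and 0.24 FPKM in the half-year libraries, against 37, 16.1 and 40.3 FPKM in the shoot libraries (log2 change -6.48 ± 0.63, adjusted p = 2.05e-06). The groups lay far apart for both genes, in opposite directions. Auxin response factors gave 11 higher and 21 lower of 44, of which 4 stayed higher and 17 lower with summed half-year libraries. ARF19 (PH02Gene29753) was at 30.3, 30.6 and 28.4 FPKM in the half-year libraries, against 4.43, 3.9 and 9.7 FPKM in the shoot libraries (log2 change 2.69 ± 0.31, adjusted p = 8.25e-06). ARF2 (PH02Gene22930), which represses growth in Arabidopsis, was at 5.08, 4.94 and 5.62 FPKM in the half-year libraries, against 71.5, 101 and 48.1 FPKM in the shoot libraries (log2 change -3.48 ± 0.29, adjusted p = 4.91e-07).

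Auxin carriers gave 6 higher and 8 lower of 23, or 26.1% and 34.8%, beside 26.5% and 27.3% over all genes. Of the carriers of the PIN-LIKES family, which hold auxin in the endoplasmic reticulum, PILS6 (PH02Gene04461) was at 205, 196 and 195 FPKM in the half-year libraries, against 34, 47 and 63.4 FPKM in the shoot libraries (log2 change 2.42 ± 0.19, adjusted p = 3.81e-07). PILS5 (PH02Gene27915) was at 1.02, 2.21 and 2.13 FPKM in the half-year libraries, against 42, 206 and 81.3 FPKM in the shoot libraries (log2 change -5.60 ± 0.71, adjusted p = 2.16e-05). PILS6 was the most abundant carrier on the list, and the shoot values of PILS5 spread widely.

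Gibberellin genes gave 12 higher and 11 lower of 31 and, on log2(FPKM + 1), 9 higher and 13 lower. The GRAS factors CIGR1 and CIGR2, which respond to gibberellin and chitin in rice, made up most of the summed level in the half-year libraries. CIGR1 (PH02Gene44779) was at 431, 442 and 433 FPKM in the half-year libraries, against 26.2, 18.7 and 31.2 FPKM in the shoot libraries (log2 change 4.47 ± 0.33, adjusted p = 2.22e-07). CIGR2 (PH02Gene13317) was at 473, 463 and 482 FPKM in the half-year libraries, against 48, 14.6 and 59.3 FPKM in the shoot libraries (log2 change 3.92 ± 0.45, adjusted p = 8.55e-06). Both lay above 400 FPKM in every half-year library and below 60 FPKM in every shoot library. GASA6 (PH02Gene06781), a small gibberellin-regulated protein, had 0 counts in every half-year library and was at 5.55, 64.3 and 4.82 FPKM in the shoot libraries, at least 181-fold lower against the floor (adjusted p = 0.00258). Its shoot level was highest in library 2, and DESeq2 did not call it (adjusted p = 0.0631).

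Cytokinin genes gave 16 higher and 20 lower of 57, or 28.1% and 35.1%, beside 26.5% and 27.3% over all genes. With summed half-year libraries more of them were called higher than lower, as was the case over all genes. LOG (PH02Gene11990), which activates cytokinin ribotides, was at 15.9, 16.2 and 18.7 FPKM in the half-year libraries, against 0.456, 0.172 and 1.28 FPKM in the shoot libraries (log2 change 5.07 ± 0.60, adjusted p = 1.09e-05). RR1 (PH02Gene05183), a response regulator of the class that cytokinin induces, was at 0.793, 0.607 and 0.712 FPKM in the half-year libraries, against 10.9, 12 and 12.7 FPKM in the shoot libraries (log2 change -3.72 ± 0.39, adjusted p = 4.33e-06). RR24 (PH02Gene04797), another response regulator and the most abundant gene on the list, was at 97.3, 95.3 and 92.8 FPKM in the half-year libraries, against 24.1, 38.7 and 61.7 FPKM in the shoot libraries (log2 change 1.58 ± 0.24, adjusted p = 9e-05). The activating enzyme was thus higher, and the response regulators RR1 and RR24 differed in direction.

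The brassinosteroid receptor gene BRI1 (PH02Gene21453) was at 0.47, 0.319 and 0.507 FPKM in the half-year libraries, against 9.74, 14.2 and 9.15 FPKM in the shoot libraries (log2 change -4.33 ± 0.50, adjusted p = 9.86e-06). BZR2 (PH02Gene42049), a transcription factor of that pathway, was at 123, 117 and 120 FPKM in the half-year libraries, against 76.7, 47.7 and 43.5 FPKM in the shoot libraries (log2 change 1.44 ± 0.24, adjusted p = 0.000175). Of brassinosteroid genes 3 of 14 were called higher and 6 lower.

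Genes of stress hormones, including those of breakdown and repression, were more often called higher, and hormone levels were not measured. Ethylene genes gave 18 higher and 5 lower of 36, with 12 higher and 4 lower when the half-year libraries were summed. MAO1B (PH02Gene48757), described as an ACC oxidase of the last step to ethylene, was at 61.9, 55.9 and 64.4 FPKM in the half-year libraries, against 0.767, 0.94 and 1.65 FPKM in the shoot libraries (log2 change 6.10 ± 0.68, adjusted p = 6.68e-06). EIL1A (PH02Gene15936), of the master factors of ethylene response, was at 209, 206 and 213 FPKM in the half-year libraries, against 140, 118 and 169 FPKM in the shoot libraries (log2 change 0.92 ± 0.16, adjusted p = 0.000215), a call that ended after quantile normalization. Abscisic acid genes gave 21 higher and 9 lower of 50. SAPK2 (PH02Gene40734), a kinase activated by osmotic stress, was at 590, 548 and 584 FPKM in the half-year libraries, against 59.1, 37.3 and 53.9 FPKM in the shoot libraries (log2 change 3.88 ± 0.25, adjusted p = 7.22e-08). Both directions appeared among the hydroxylases that break abscisic acid down. CYP707A5 (PH02Gene03757) was at 145, 128 and 148 FPKM in the half-year libraries, against 17.5, 9.27 and 6.53 FPKM in the shoot libraries (log2 change 3.99 ± 0.37, adjusted p = 1.22e-06). CYP707A7 (PH02Gene27952) was at 5.17, 5.84 and 5.91 FPKM in the half-year libraries, against 106, 48 and 73.6 FPKM in the shoot libraries (log2 change -3.39 ± 0.52, adjusted p = 9.56e-05).

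Jasmonate genes gave 37 higher and 10 lower of 60, with a median of 2.03, which was 1.88 with genes at 0 in 1 group set to the floor. This list takes in TIFY genes, which are counted again as a family below. TIFY10A (PH02Gene04428), a jasmonate response repressor, was at 410, 372 and 426 FPKM in the half-year libraries, against 19.6, 7.88 and 32.9 FPKM in the shoot libraries (log2 change 4.71 ± 0.42, adjusted p = 1.03e-06). The largest fall was that of LOX2.3 (PH02Gene44707), described as a chloroplast lipoxygenase. It was at 0.027, 0 and 0 FPKM in the half-year libraries, against 24.4, 6.45 and 4.81 FPKM in the shoot libraries (log2 change -9.62 ± 1.02, adjusted p = 4.42e-06).

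Transcription factor families differed in direction. WRKY factors, many of which act in defence, gave 77 higher and 9 lower of 110, with a median log2 change of 2.28. AP2-EREBP factors gave 84 higher and 14 lower of 133 and a median of 2.33, and NAC factors 49 higher and 17 lower of 111 and 0.94. TIFY genes, which include the jasmonate response repressors and overlap the jasmonate list, gave 23 higher and 2 lower of 28 and 4.99. With genes at 0 in every library of 1 group set to the floor, the medians of WRKY, AP2-EREBP, NAC and TIFY were 2.21, 2.18, 0.82 and 4.61. At the other end stood TCP, GRF and E2F factors with medians of -3.39, -3.58 and -1.51. MYB factors gave 30 higher and 30 lower of 118, bHLH factors 39 higher and 41 lower of 132 and Dof factors 12 higher and 16 lower of 38, shares close to those of all genes for MYB and bHLH. On log2(FPKM + 1) the counts were 31 higher and 42 lower for MYB and 30 higher and 52 lower for bHLH. Without shoot library 3 they were 43 higher and 28 lower for MYB, and with summed half-year libraries 30 higher and 27 lower for bHLH and 9 higher and 7 lower for Dof.

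**Figure D4:**
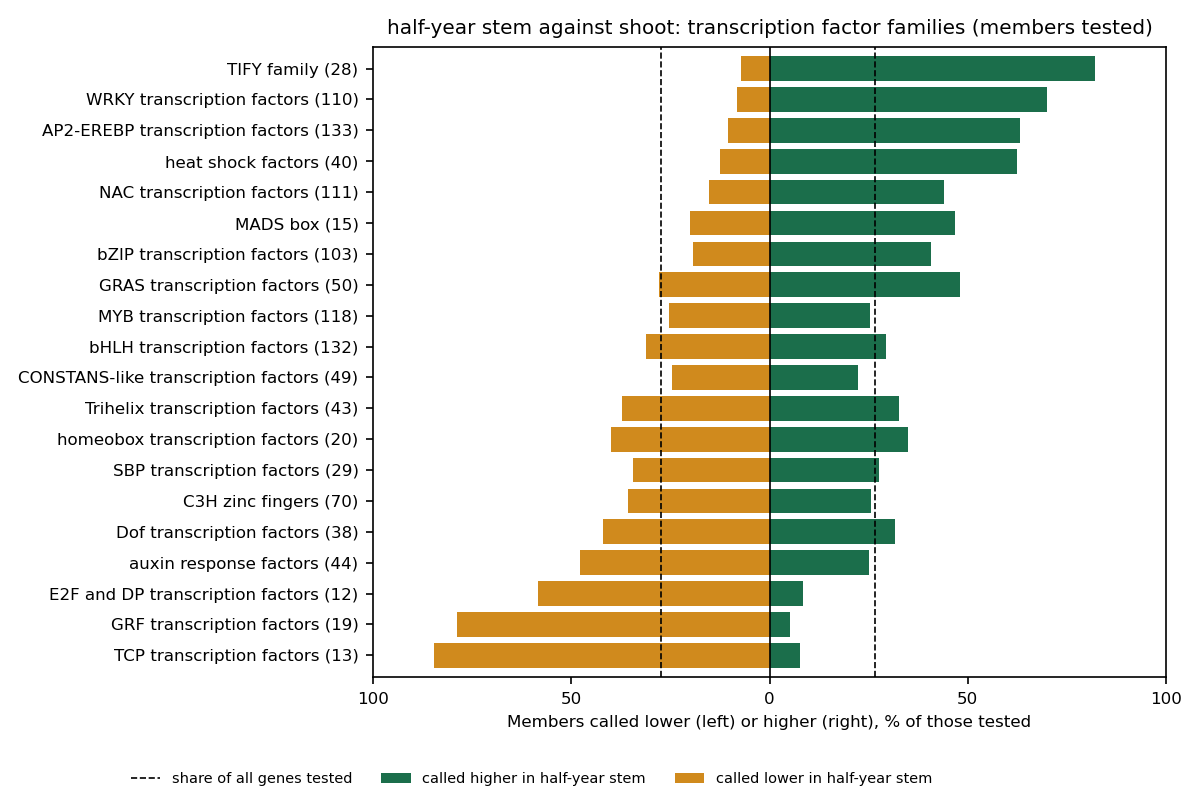
Share of the tested members of each transcription factor family called higher (right) or lower (left) in the half-year stem than in the shoot, in % of the members tested, sorted by the difference of the shares. Dashed lines mark the shares over all genes tested, and TIFY with 82.1% higher and TCP with 84.6% lower stand at the top and the bottom.

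Values of single factors follow by family. WRKY71 (PH02Gene30731) was the most abundant WRKY gene, at 434, 370 and 428 FPKM in the half-year libraries, against 6.87, 4.9 and 21.2 FPKM in the shoot libraries (log2 change 5.62 ± 0.45, adjusted p = 4.05e-07). WRKY41 (PH02Gene19350) was at 145, 111 and 136 FPKM in the half-year libraries, against 1.77, 1.46 and 5.27 FPKM in the shoot libraries (log2 change 5.91 ± 0.57, adjusted p = 1.76e-06). WRKY12 (PH02Gene28916), whose Arabidopsis namesake restrains secondary walls in pith, was at 0.087, 0.283 and 0 FPKM in the half-year libraries, against 5.27, 5.76 and 1.74 FPKM in the shoot libraries (log2 change -4.56 ± 0.82, adjusted p = 0.00057). The first 2 were high in the half-year stem and the last was low in both groups, with its highest values in shoot libraries 1 and 2. EREBP1 (PH02Gene38917), the most abundant AP2-EREBP factor, was at 910, 910 and 923 FPKM in the half-year libraries, against 158, 146 and 89.7 FPKM in the shoot libraries (log2 change 3.14 ± 0.30, adjusted p = 1.78e-06). WIN1 (PH02Gene13928), which switches on cuticle genes in Arabidopsis, was at 0, 0.196 and 0 FPKM in the half-year libraries, against 7.25, 21.1 and 17.5 FPKM in the shoot libraries (log2 change -7.14 ± 0.86, adjusted p = 1.37e-05). WIN1 was at 0 in half-year libraries 1 and 3.

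MADS26 (PH02Gene43573), a MADS-box factor, was at 178, 193 and 179 FPKM in the half-year libraries, against 6.97, 7.1 and 16.4 FPKM in the shoot libraries (log2 change 4.55 ± 0.28, adjusted p = 4.99e-08). Among MYB genes, MYB2 (PH02Gene25693), described as similar to MYB86, was at 93.6, 75.7 and 92.6 FPKM in the half-year libraries, against 0.053, 0.351 and 0.493 FPKM in the shoot libraries (log2 change 8.56 ± 0.54, adjusted p = 5.91e-08). MYB61 (PH02Gene04302), whose namesake acts in secondary wall control in rice, was at 0.313, 0.255 and 0.241 FPKM in the half-year libraries, against 40.2, 39 and 38 FPKM in the shoot libraries (log2 change -6.80 ± 0.27, adjusted p = 3.42e-09). Each of these 2 MYB genes was below 1 FPKM in 1 group and above 30 FPKM in the other. BHLH25 (PH02Gene12445), the most abundant bHLH gene, was at 248, 217 and 237 FPKM in the half-year libraries, against 0.62, 2.84 and 4.15 FPKM in the shoot libraries (log2 change 6.92 ± 0.71, adjusted p = 3.51e-06). BHLH35 (PH02Gene12146) was at 126, 136 and 131 FPKM in the half-year libraries, against 0.67, 0.755 and 0.545 FPKM in the shoot libraries (log2 change 7.98 ± 0.56, adjusted p = 1.37e-07). BHLH48 (PH02Gene25664) was at 0.126, 0.103 and 0.136 FPKM in the half-year libraries, against 38.9, 67.5 and 23 FPKM in the shoot libraries (log2 change -8.07 ± 0.67, adjusted p = 5.3e-07). Among these bHLH genes 2 rose and 1 fell, without overlap. NAC002 (PH02Gene29164), a NAC factor, was at 65.5, 62.2 and 69.6 FPKM in the half-year libraries, against 0.99, 0.274 and 1.96 FPKM in the shoot libraries (log2 change 6.31 ± 0.44, adjusted p = 1.38e-07). CDF2 (PH02Gene18480), a cyclic Dof factor, was at 0.826, 1.14 and 0.759 FPKM in the half-year libraries, against 8.74, 5.4 and 35.3 FPKM in the shoot libraries (log2 change -3.74 ± 0.59, adjusted p = 0.00013).

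The counts of photosynthesis genes turned on shoot library 3. Of light harvesting and photosystem genes 9 of 58 were called higher and 9 lower, and without shoot library 3 the counts were 36 higher and 5 lower. Their summed FPKM was 1280, 1170 and 1280 in the half-year libraries and 857, 477 and 2260 in the shoot libraries. None of the 58 members was at 0 in every library of a group. PSBR (PH02Gene08265), the most abundant, was not called at 139, 150 and 148 FPKM in the half-year libraries, against 19, 71.5 and 194 FPKM in the shoot libraries (log2 change 1.03 ± 0.55, adjusted p = 0.128), and was called higher without shoot library 3. PSBS2 (PH02Gene34222), which dissipates excess light, was called at 69.9, 66.6 and 69.1 FPKM in the half-year libraries, against 1.72, 3.06 and 5.03 FPKM in the shoot libraries (log2 change 4.77 ± 0.66, adjusted p = 4.11e-05). Lipid transfer, cuticle and wax genes also summed highest in shoot library 3, with 318, 292 and 339 FPKM in the half-year libraries and 387, 307 and 791 FPKM in the shoot libraries. They gave 7 higher and 17 lower of 47, and 17 higher and 15 lower without that library. The tissue make-up of shoot library 3 was not tested, and in such bulk samples fewer cells of a type and less RNA per cell cannot be told apart.

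**Figure D5:**
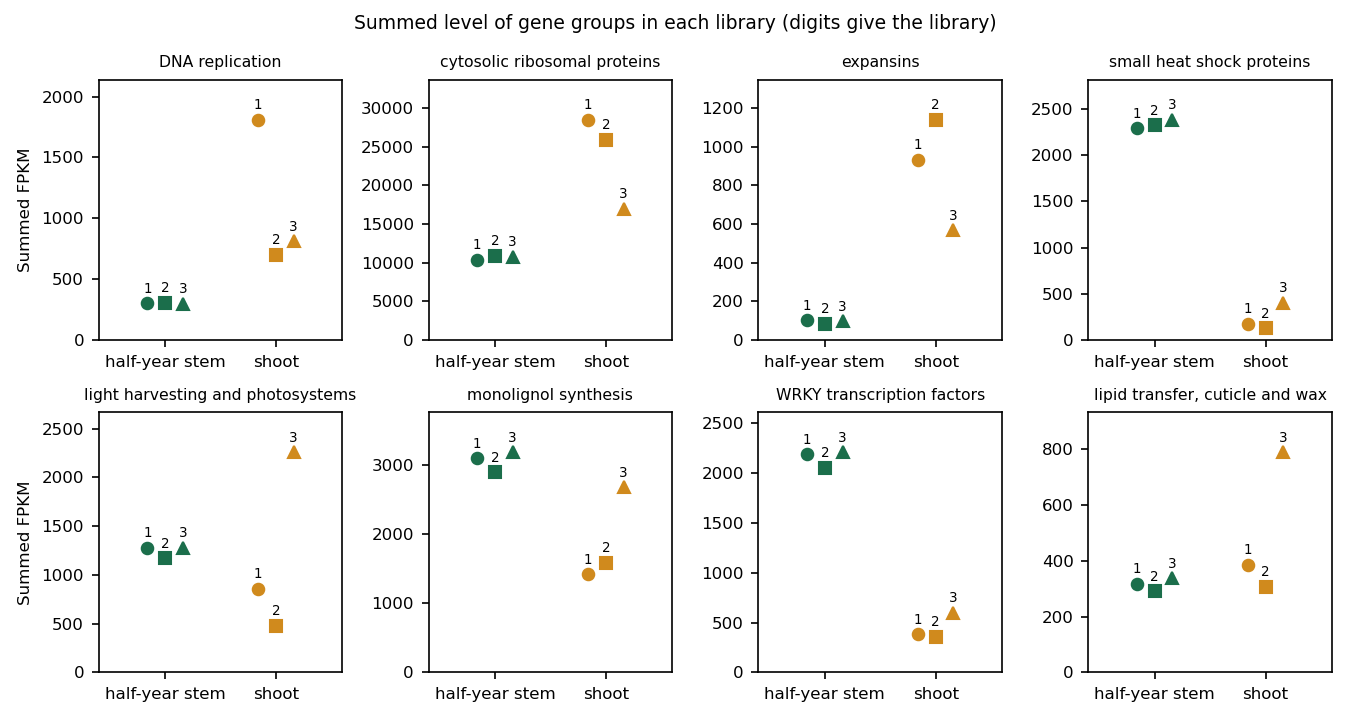
Summed FPKM of 8 gene groups in each of the 3 half-year stem libraries (left) and the 3 shoot libraries (right), on linear axes that start at 0. The half-year libraries lie close together in every panel, and shoot library 3 is the highest library for light harvesting and for cuticle genes and the lowest shoot library for ribosomal proteins and expansins.

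Carbon storage genes included large changes within families of mixed direction. Starch genes gave 22 higher and 12 lower of 71 and, on log2(FPKM + 1), 17 higher and 20 lower. In edgeR these shares were 31% and 16.9%, beside 26.5% and 27.3% over all genes. WAXY (PH02Gene13019), the granule-bound starch synthase that makes amylose, was at 175, 154 and 168 FPKM in the half-year libraries, against 6.11, 10.5 and 9.26 FPKM in the shoot libraries (log2 change 4.63 ± 0.50, adjusted p = 5.69e-06). The other gene of that symbol, PH02Gene37359, was at 27.7, 26 and 27.6 FPKM in the half-year libraries, against 211, 121 and 165 FPKM in the shoot libraries (log2 change -2.25 ± 0.55, adjusted p = 0.00337), and that call ended with summed half-year libraries. The 2 genes traded places: PH02Gene37359 was the higher of them in the shoot and PH02Gene13019 in the half-year stem. AGPL3 (PH02Gene27047), a subunit of the enzyme that supplies ADP-glucose, was at 0.733, 0.679 and 1 FPKM in the half-year libraries, against 16.3, 22.5 and 47.3 FPKM in the shoot libraries (log2 change -4.77 ± 0.41, adjusted p = 7.68e-07). Sucrose and sugar transport genes gave 28 higher and 20 lower of 91 and, on log2(FPKM + 1), 22 higher and 27 lower. SWEET13 (PH02Gene39291), a sugar uniporter, was at 27.1, 25.7 and 29 FPKM in the half-year libraries, against 0, 0.622 and 1.16 FPKM in the shoot libraries (log2 change 5.92 ± 0.84, adjusted p = 5.15e-05). SWEET11 (PH02Gene08624) had 0 counts in every half-year library and 5.08, 14.5 and 10.8 FPKM in the shoot libraries, at least 145-fold lower against the floor (adjusted p = 6.66e-05). SUS1 (PH02Gene04423), a sucrose synthase, was among the most abundant and was not called at 752, 737 and 766 FPKM in the half-year libraries, against 1027, 1320 and 558 FPKM in the shoot libraries (log2 change -0.03 ± 0.41, adjusted p = 0.954).

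Of aquaporins 6 of 26 were called higher and 6 lower, shares close to those of all genes. The plasma membrane channel PIP1-1 (PH02Gene43726) was at 138, 129 and 137 FPKM in the half-year libraries, against 368, 512 and 315 FPKM in the shoot libraries (log2 change -1.22 ± 0.40, adjusted p = 0.0195), a call that ended with summed half-year libraries and without half-year library 2 or 3 or shoot library 2 (adjusted p = 0.0515 to 0.0762). The tonoplast channel TIP4-1 (PH02Gene26641) was at 154, 146 and 163 FPKM in the half-year libraries, against 28.1, 33.8 and 61.8 FPKM in the shoot libraries (log2 change 2.29 ± 0.28, adjusted p = 1.37e-05). NIP3-1 (PH02Gene21395) was at 0.492, 0.521 and 0.535 FPKM in the half-year libraries, against 41.5, 54 and 18.5 FPKM in the shoot libraries (log2 change -5.87 ± 0.58, adjusted p = 2.43e-06). Of these 3 channels 1 rose and 2 fell. Nitrogen uptake and assimilation genes gave 15 higher and 3 lower of 33, of which 10 stayed higher with summed half-year libraries. AMT3-2 (PH02Gene34462), an ammonium transporter, was at 12, 10.5 and 12.8 FPKM in the half-year libraries, against 0, 0.235 and 1.8 FPKM in the shoot libraries (log2 change 4.51 ± 0.75, adjusted p = 0.000203). AS (PH02Gene03391), which makes asparagine, was at 0.286, 0.167 and 0.176 FPKM in the half-year libraries, against 67.2, 93.4 and 14.1 FPKM in the shoot libraries (log2 change -7.78 ± 0.73, adjusted p = 4.27e-06). The most abundant glutamine synthetase, GLN1-1 (PH02Gene04855), was not called at 247, 248 and 251 FPKM in the half-year libraries, against 289, 307 and 219 FPKM in the shoot libraries (log2 change 0.22 ± 0.22, adjusted p = 0.42), and was called lower after quantile normalization. LSI3 (PH02Gene03618), described as a silicon efflux transporter, was at 289, 284 and 283 FPKM in the half-year libraries, against 124, 54.6 and 115 FPKM in the shoot libraries (log2 change 1.91 ± 0.31, adjusted p = 0.000153).

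Several of these differences held in stems older than the compared stage, given here as values without a test. Mean FPKM of EXPA2 (PH02Gene32628) was 0.106, 0.065 and 0.131 in stems of 1, 2 and 3 years, and that of GRF1 (PH02Gene34199) was 0, 0 and 0.014, so both stayed below 1 FPKM after the shoot. CIGR1 (PH02Gene44779) was at 679, 1161 and 908 FPKM and SAPK2 (PH02Gene40734) at 982, 1082 and 973 FPKM, each above its half-year values in all 3 ages. Others stood high at the half-year stage alone among the 5 stages. FKBP70 (PH02Gene36316) was at 86.7, 14.4 and 8.85 FPKM in those ages, GUX1 (PH02Gene10692) at 25.3, 29.4 and 23.9 FPKM, APX2 (PH02Gene16639) at 150, 81.4 and 104 FPKM and the CESA4 gene PH02Gene14733 at 34.9, 15.9 and 2.04 FPKM. For PAL (PH02Gene27016) they were 95.6, 40.3 and 28.4 FPKM, below all 3 shoot values.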

How the data were processed

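Libraries of the half-year stem and the shoot of Chimonocalamus delicatus, 3 each, were compared by RNA sequencing. HISAT2, StringTie 1.3.1 and RSEM appear in the submitters' processing notes, which do not say what each tool did, and no source used here gives the genome build. The authors deposited expected counts per gene, of which 58.7% of those above 0 were whole numbers as written. FPKM values, also deposited by the authors according to the headers, serve for levels. Such values depend on the make-up of each library, so a few abundant genes can shift all others.

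The expected counts were rounded and entered edgeR 4.0.16 in R 4.3.3 (quasi-likelihood test, TMM, two-sided, Benjamini-Hochberg over 29538 genes, calls at 0.05), with group as the only factor and all 15 growth stage libraries of 5 groups in 1 fit. The other 26434 genes, which had fewer than 3 libraries at 1 FPKM or more, were left out. At totals of 9315107 to 12422327 counts, 3 counts correspond to 0.242 to 0.322 CPM per library, a floor that covers counting error only. The 68 gene lists come from descriptions, symbols and transcription factor families in the table. Members and lists were chosen with earlier results of these data known, and no list was tested.

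Genes eligible to be named were called, had a functional description, averaged 10 FPKM or more in whichever group was higher, and did not overlap between groups. Ranked by their change in log2(mean FPKM + 1), the top 15 in each direction were taken. For each list the called members with the largest rise and fall and the most abundant member were added. That gave 209 genes, of which those described here are a part. The alternatives used limma 3.58.1 and DESeq2 1.42.0, with other scalings, filters, left-out libraries and a replicate block. Same-numbered libraries of the 2 groups deviated from their group means with correlations of 0.008, 0.046 and 0.015. The half-year libraries vary so little that these correlations cannot show whether the numbers pair the libraries.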

Additional observations from a re-analysis of the deposited data

How the results depend on the processing

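edgeR called 7818 genes higher and 8073 lower. Leaving out 1 library at a time gave 6789 to 8727 higher and 6783 to 8500 lower. With the replicate block the counts were 7977 and 7882, and the block ended 1 call of a named gene, TUBA1. Counts moved by over 1.5 times under the stricter filter of a mean of 5 FPKM, where fewer genes were tested (4862 higher, 5176 lower), and for a change beyond 2-fold (4028 higher, 3520 lower). Genes called lower numbered 4064 with summed half-year libraries, which leave fewer samples, and 5056 when shoot library 3 was also left out, and 56.8% of the calls were higher with summed libraries. The setting that also leaves out shoot library 3 was chosen after seeing the data. limma on log2(FPKM + 1) called 6140 higher and 11502 lower. The share of higher calls was then 34.8%, against 49.2% in edgeR. With a pseudocount of 0.1 the counts were 6215 and 10942, or 36.2% higher. DESeq2 called 7752 higher and 8543 lower.

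List medians near 0 changed sign, and the cause was not tested. On log2(FPKM + 1) and log2(FPKM + 0.1) they were -0.03 and -0.04 for cellulose synthases, -0.05 and -0.06 for DnaJ, -0.08 in both for auxin response, -0.20 and -0.25 for cytokinin, and -0.10 and -0.13 for bHLH. On log2(FPKM + 1) starch was just below 0, at -0.00, and sugar transport at -0.05. Under the stricter filter the medians were 0.01 for cellulose synthase-like genes, 0.63 for xylan, 1.28 for gibberellin, 0.35 for SBP and 0.18 for Trihelix genes. SBP was at 0.01 with summed half-year libraries and shoot library 3 left out. Without 1 library, tubulins ran between -0.98 and 0.03, cytokinin between -0.09 and 0.18, and bHLH between -0.01 and 0.26. Among named genes, log2 changes without 1 library ran between -0.30 and 0.21 for RFC5, -0.51 and 0.24 for PNC2, and -0.34 and 0.29 for SUS1. With limma TBP2 was at -0.16, CSLF6 at -0.09 and GLN1-1 at -0.11 under both pseudocounts. After quantile normalization these were -0.38, -0.16 and -0.67, ARF4 was at -0.11, SPL15 at -0.09 and SUS1 at 0.08. Depth limits genes near the floor of 3 counts, where no fold beyond a bound can be given.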

Other observations

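KEGG pathways of the table, assigned by similarity to genes of other species, gave further counts over whole processes, beside 26.5% higher and 27.3% lower over all genes. In genome maintenance more genes were called lower than higher: of homologous recombination genes 8 of 91 were called higher and 44 lower, of mismatch repair genes 6 of 66 were called higher and 36 lower, and of base excision repair genes 6 of 63 were called higher and 33 lower. These pathways share replication factors, so their counts are not independent. Ribosome biogenesis gave 9 higher and 80 lower of 156, with 33 lower when the half-year libraries were summed. Of N-glycan synthesis genes, which build the sugar trees of secreted proteins, 11 of 80 were called higher and 36 lower. With summed libraries their share called lower was close to that of all genes. Glycosylphosphatidylinositol anchor synthesis, which ties proteins such as the COBRA-like ones to the membrane, gave 3 higher and 19 lower of 40, and 7 were called lower with summed libraries. Cutin, suberine and wax synthesis gave 2 higher and 16 lower of 24, with a median log2 change of -2.80.

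Metabolic pathways moved in both directions. Lower calls outnumbered higher ones in oxidative phosphorylation, with 24 higher and 54 lower of 179. That excess was lost with summed libraries, where its shares were below those of all genes in both directions. The citrate cycle gave 17 higher and 31 lower of 94 (18.1% and 33%) and pyrimidine metabolism 17 higher and 37 lower of 93. Fatty acid synthesis gave 16 higher and 28 lower of 69 and steroid synthesis 5 higher and 18 lower of 47. With summed libraries the excess of lower calls was small for the citrate cycle, pyrimidine metabolism and fatty acid synthesis. Summed FPKM of fatty acid synthesis was higher, at 1550, 1450 and 1530 in the half-year libraries and 1300, 1250 and 1250 in the shoot libraries. Phenylpropanoid synthesis, which includes the peroxidases, gave 59 higher and 62 lower of 192. The pentose phosphate pathway, which supplies reducing power and sugar phosphates, gave 44 higher and 9 lower of 95, or 25 higher and 2 lower with summed libraries. Synthesis of phenylalanine, tyrosine and tryptophan, upstream of lignin, gave 38 higher and 9 lower of 81. Flavonoid synthesis gave 22 higher and 5 lower of 53. With summed libraries its share called higher was close to that of all genes, and its share called lower was below. Nitrogen metabolism gave 21 higher and 5 lower of 40. Signalling pathways of plant and pathogen interaction gave 135 higher and 53 lower of 296, and plant MAPK signalling 108 higher and 42 lower of 230. Spliceosome genes gave shares nearer the background, with 68 higher and 97 lower of 352, and on log2(FPKM + 1) with 41 higher and 171 lower.

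Casparian strip and silicon transport genes were listed with endodermis and root in mind. The list takes in CASP-like genes by description, and the cell types that express its members were not tested. They gave 17 higher and 9 lower of 50, with summed FPKM of 778, 763 and 784 in the half-year libraries and 435, 408 and 573 in the shoot libraries. The CASP-like gene MSTRG.58737 was at 67.2, 75.5 and 74.9 FPKM in the half-year libraries, against 12, 12 and 13.6 FPKM in the shoot libraries (log2 change 2.90 ± 0.34, adjusted p = 1.07e-05), an edgeR test. Phloem markers numbered 5 tested genes, of which 2 were called higher and 0 lower, and summed to 13.6, 15.4 and 15 FPKM in the half-year libraries and 6.84, 9.98 and 10.5 FPKM in the shoot libraries. MADS-box genes, some of which mark flowers, gave 7 higher and 3 lower of 15.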
